A study of Mus musculus with 9 samples.

Results

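The step from 2 to 7 days of Apc restoration was examined in mouse AKP tumour organoids, epithelial tumour cultures also called tumoroids. Its members were taken from the sample titles: the 3 samples without doxycycline for 7 days against the 3 samples without it for 2 days, 6 of the 9 samples of the series. RNA sequencing gave counts for 21253 genes, of which 12535 passed a filter on low counts and were tested. In every group Apc is the target of a short hairpin RNA that depends on doxycycline, so both groups compared here had lost the drug and differ in how long ago. The 3 remaining samples stayed in doxycycline with Apc off (control) and give the starting level. The labels do not spell out the alleles that AKP stands for, the promoter of the hairpin or the number of mice or clones behind the culture. The 3 samples of each group are labelled technical replicates, so a p-value here reflects only how these samples vary, and that variation may be technical. Days without doxycycline and days in culture cannot be told apart.

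In the intestine, stem cells at the crypt base divide under Wnt signals, and their daughters stop dividing and mature as they move up the crypt and the villus. Apc is a scaffold of the complex that marks beta-catenin for destruction, and its loss keeps the Wnt programme on. Maturing absorptive cells (enterocytes) build a brush border of microvilli, load it with digestive enzymes and transporters and package fat into chylomicrons, while goblet cells make mucus and other secretory cells make hormones or antimicrobial proteins.

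Most of the genes tested moved between 2 and 7 days. In edgeR's quasi-likelihood test, 4912 genes (39.2% of those tested) were higher at 7 days and 5006 (39.9%) were lower at an adjusted p under 0.05, and 2617 were not called. Beyond 2-fold, 2424 genes (19.3%) were higher and 2033 (16.2%) lower, and beyond 8-fold 625 were higher and 51 lower. With library size alone, 1672 were higher and 3546 lower beyond 2-fold, so the balance at 2-fold turns with the scaling. The median absolute log2 change was 0.71, against 0.17 for 2 days minus control, a comparison that shares the 2-day samples and in which 13.1% of genes were called higher and 10.6% lower. A contrast of the 2 steps, 7 days minus 2 days less 2 days minus control, was called for 7306 genes (58.3%). Library totals ran from 24143589 to 32277040 counts over the 9 samples. The share of counts held by the 10 most abundant genes was 6.31% to 6.8% on day 2 and 12% to 13.8% on day 7, and the TMM scaling factors were lower at 7 days (0.785 to 0.874) than at 2 days (1.09 to 1.12). With library size alone in place of TMM, log2 changes shifted by a median of -0.42, and 3281 genes were called higher and 7041 lower, so that 31.8% of calls were rises instead of 49.5%. Upper-quartile factors shifted them by -0.12. Where the sign of a named gene's change or the balance of a list turns with library size alone, that value is given beside it.

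**Figure D1:**
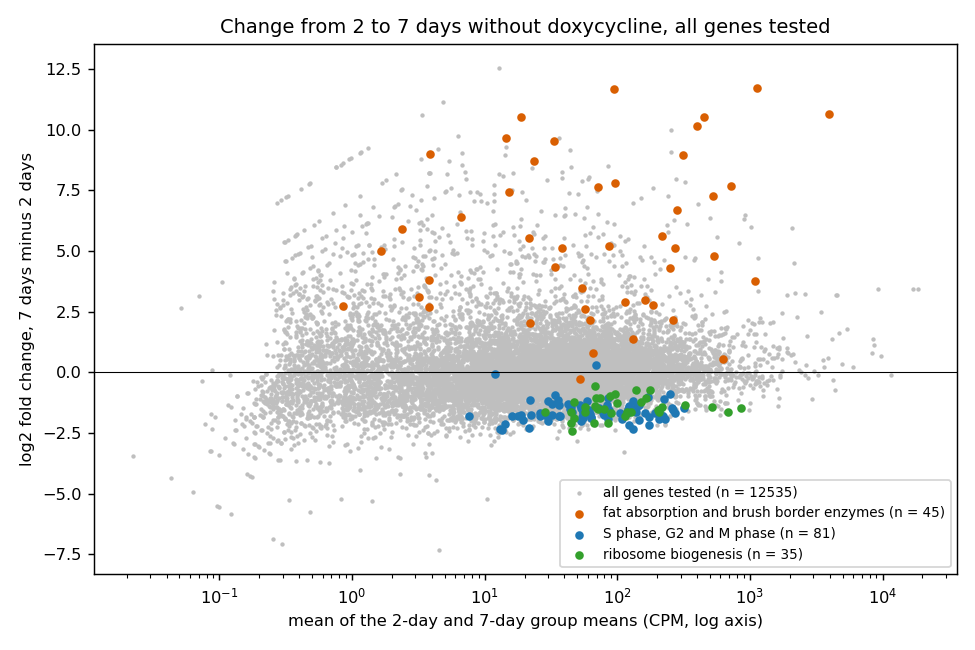
Change from 2 to 7 days for each of the 12535 genes tested, as the log2 fold change (y axis) against the mean of the group means in CPM (log x axis); coloured points mark genes of fat absorption and brush border enzymes, of S, G2 and M phase, and of ribosome biogenesis. The absorptive genes lie above 0 with 1 exception, and the cell cycle and ribosome genes form a band below 0 with 1 exception.

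Expression is given as CPM, counts scaled to a fixed library size, of the TMM-scaled library, for each of the 3 samples of a group or as mean ± SD (n = 3 per group), and differences as log2 fold changes ± SE, 7 days minus 2 days. Genes said to rise or fall passed an adjusted p of 0.05. Over all genes tested, 9946 (79.3%) had no overlap between the 3 samples at 7 days and the 3 at 2 days. Counts of list members stand against the shares of all genes tested, 39.2% higher and 39.9% lower for 7 days minus 2 days. The filter kept a gene that was high enough in any single group. A gene nearly silent in the controls and at 2 days was thus tested only if it was high at 7 days. For such genes, among them Treh, Apoc3, Fabp1 and G6pc, the rise was fixed by the filter. They are included in the counts and medians of their lists. Apc itself stood at 6.8, 6.83 and 8.84 CPM under doxycycline, 31.8, 38.1 and 24.8 CPM on day 2 and 67.9, 69.9 and 92.9 CPM on day 7. The groups did not overlap, and Apc went on rising after day 2 by 1.29 ± 0.15 (adjusted p = 1.3e-06), against 2.08 ± 0.17 in the first 2 days. The targeted gene thus follows the labels in all 9 samples. Trp53, which encodes p53, fell, with 2.33, 2.84 and 3.19 CPM on day 2 and 1.08, 1.46 and 0.953 CPM on day 7, a change of -1.25 ± 0.20. Of 16 genes of the beta-catenin destruction complex and the Ras pathway, 6 were higher and 5 lower, close to the shares of all genes, and with library size alone 2 were higher and 10 lower. Ctnnb1, the gene of beta-catenin itself, rose from 1009 ± 50.2 to 1498 ± 45.5 CPM (0.57 ± 0.08, or 0.15 and not called with library size alone). Tcf7l2, of the same list, rose from 20.4 ± 1.35 to 44.5 ± 2.32 CPM (1.13 ± 0.08).

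**Figure D2:**
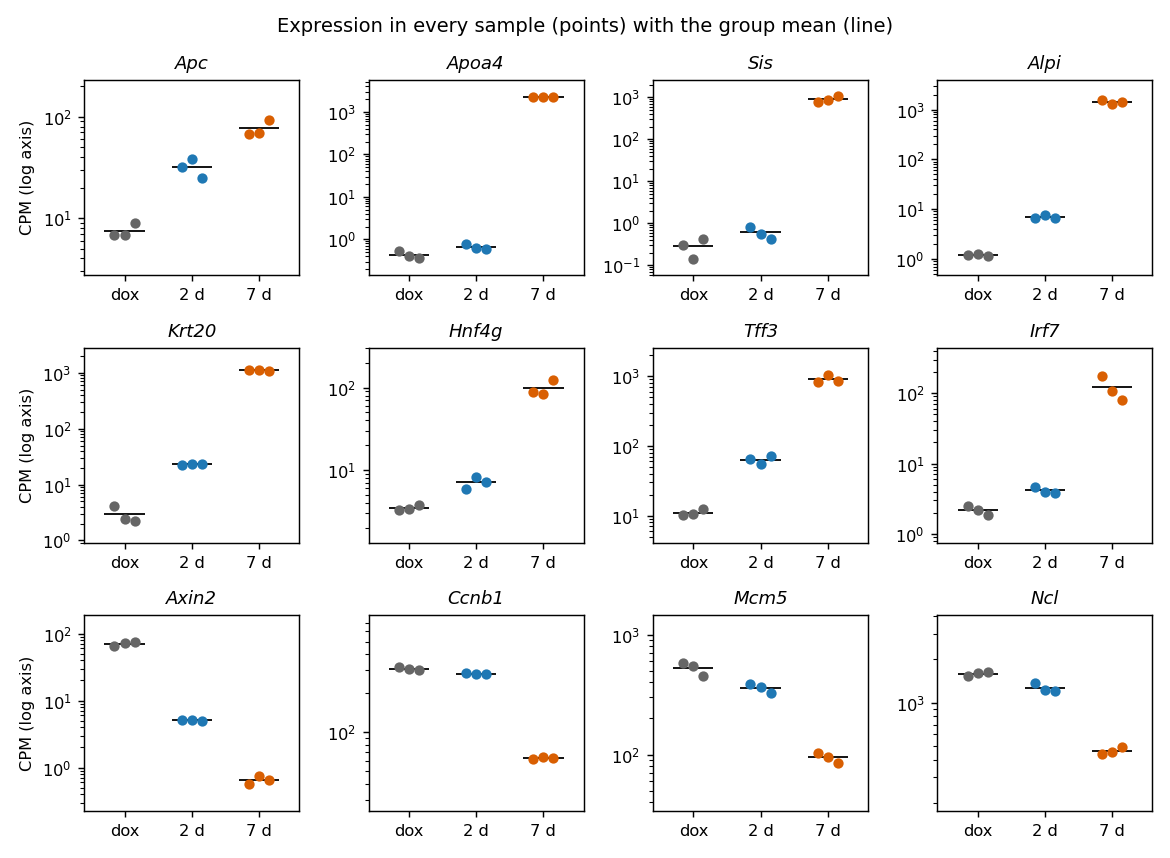
CPM (log y axis) of 12 genes in each of the 9 samples, grouped as doxycycline kept (dox), 2 days (2 d) and 7 days (7 d) without it; points are samples and lines group means. In every panel the 3 samples at 7 days lie wholly above or wholly below the 3 at 2 days, as they did for 79.3% of all genes tested.

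Wnt targets had already dropped at 2 days and dropped further. Of 17 tested, 15 were lower at 7 than at 2 days and 1 was higher, with a median change of -1.18 against -0.03 over all genes, and 14 had been lower at 2 days than in the controls (background 10.6%). Axin2, a feedback inhibitor that reports Wnt activity, stood at 5.08, 5.19 and 5.03 CPM on day 2 and 0.563, 0.751 and 0.66 CPM on day 7, after 70.5 ± 5.05 CPM in the controls. Its samples did not overlap, and it fell by a further 7.67-fold. Tcf7, a transcription factor that is itself a target, fell from 13.97 ± 0.918 to 2.93 ± 0.304 CPM (-2.26 ± 0.11). Cd44, a surface glycoprotein of crypt cells, fell from 124 ± 8.47 to 40.7 ± 1.44 CPM. Ccnd1, which encodes cyclin D1, fell from 634 ± 33.9 to 376 ± 21.99 CPM. The 1 Wnt target that rose was Kcnq1, a potassium channel, from 28.3 ± 2.19 to 42.5 ± 4.44 CPM (0.59 ± 0.09), a call lost with library size alone (0.16).

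Of 18 crypt-base stem cell genes, 13 fell (background 39.9%) and 2 rose (background 39.2%), with a median of -0.79. Tnfrsf19 (Troy), a receptor of stem cells, had 847 counts over the 2-day samples and 4 over the 7-day samples, and stood at 8.67, 10.2 and 8.22 CPM on day 2 and 0.0433, 0.0376 and 0.0733 CPM on day 7. This was the largest fall among genes with at least 5 CPM in the higher group. Lgr5, a receptor for R-spondins and the classical stem cell marker, fell, with 1.96, 1.9 and 2.03 CPM on day 2 and 0.995, 0.601 and 1.06 CPM on day 7, -1.15 ± 0.21. The larger loss of Lgr5 preceded day 2, since the controls stood at 13.02, 15.4 and 16.4 CPM and the first step changed it by -2.93 ± 0.15. Slc14a1, a urea transporter found in the list, fell 41.5-fold (95% exact counting interval 13.9 to 203), with 3 counts left at 7 days. Prom1 (CD133) and Pdgfa, a growth factor, rose instead, by 0.70 ± 0.08 and 0.80 ± 0.11. In bulk RNA, fewer cells of a type and less RNA per cell cannot be told apart, here and in all results on cell types below.

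Genes of fat absorption rose steeply. Of 25 genes tested, 24 were higher at 7 days (background 39.2%) and 22 of them beyond 2-fold (background 19.3%), with a median of 4.30. Apoa4, the chylomicron apolipoprotein, at GRCm38 chromosome 9, 46240696 to 46243459, stood at 0.766, 0.623 and 0.583 CPM on day 2 and 2299.9, 2218 and 2232 CPM on day 7. It rose 3395-fold (11.73 ± 0.14) with no overlap, having changed by 0.62 ± 0.25 between control and 2 days, which was not called. Apoa1, its neighbour in the same gene cluster and the main apolipoprotein of HDL, stood at 4.35, 6.44 and 3.84 CPM on day 2 and 8245, 8001 and 7465 CPM on day 7. Apoc3, from the same cluster, had 5 counts over the 2-day samples and 189 ± 8.34 CPM at 7 days. The 3 neighbours thus rose together between 2 and 7 days.

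The machinery that builds the particle rose as well. Mttp, which loads lipid onto apolipoprotein B, stood at 7.23, 6.82 and 6.38 CPM on day 2 and 1069, 1022 and 1062 CPM on day 7, 7.27 ± 0.10. Apob, the structural protein of the particle, went from 147 ± 41.5 to 2024 ± 339 CPM (3.78 ± 0.18). Creb3l3, a membrane-bound transcription factor known to drive apolipoprotein genes, went from 0.857 ± 0.219 to 192 ± 20.6 CPM (7.81 ± 0.15). Uptake genes rose too. Npc1l1, the cholesterol importer, rose from 5.39 ± 0.185 to 562 ± 25.99 CPM, and Rbp2, which carries retinol in enterocytes, from 1.25 ± 0.264 to 629 ± 38.98 CPM. Fabp1, a cytosolic fatty acid carrier, had 3 counts over the 2-day samples and 24.4, 31.4 and 31.5 CPM at 7 days, a ratio of 920.3-fold (95% exact counting interval 314 to 4466). The only member that fell was Scarb1, the HDL receptor, from 57.3 ± 3.99 to 46.7 ± 6.77 CPM (-0.30 ± 0.10), a call that was lost without 2-day sample 1 or 2 or without 7-day sample 2 or 3 (adjusted p of 0.054, 0.058, 0.051 and 0.082).

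All 20 brush border enzymes tested rose, each beyond 2-fold, with a median of 5.76. Members such as Treh passed the filter only through the 7-day samples, so their rise was fixed by it. Summed over the list, they went from 139.7 to 156 CPM at 2 days to 5765 to 6207 CPM at 7 days. Sis, sucrase-isomaltase, stood at 0.827, 0.554 and 0.43 CPM on day 2 and 761, 876 and 1043 CPM on day 7 and rose 1466-fold. Alpi, the intestinal alkaline phosphatase, stood at 6.55, 7.79 and 6.63 CPM on day 2 and 1590.4, 1291 and 1411 CPM on day 7, after 1.2, 1.23 and 1.17 CPM in the controls. Alpi had thus begun to rise at 2 days (2.53 ± 0.15) and gained 7.68 ± 0.12 after it. Anpep, aminopeptidase N, rose from 0.688 ± 0.259 to 791 ± 108 CPM (10.17 ± 0.21), and Enpep, aminopeptidase A, from 0.719 ± 0.088 to 143 ± 5.97 CPM (7.62 ± 0.14). Treh, trehalase, had 2 counts at 2 days and 2877 at 7 days, a ratio of 1758-fold (95% exact counting interval 486 to 14520.0). Ggt1, which cleaves glutathione, rose from 0.0884 ± 0.0866 to 67.1 ± 6.34 CPM. For these enzymes the 3 samples at 7 days lay far from the 3 at 2 days. Here and in all other lists, where a group holds few counts the SE can lie below counting error.

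Sequences before the starts of 3 of these genes are printed here because their promoters hold letters known to be bound by factors of the intestinal epithelium. Hnf4 factors bind CAAAGTCCA and Cdx factors bind TTTATGG, and each was searched on both strands of the 250 bases before each start in the RefSeq promoter table (build GRCm38.p6). Of the fat absorption genes tested 19 had an entry, with 21 promoters, and of the brush border enzymes 15, with 20. The Hnf4 letters stood in 2 of the 20 enzyme promoters and in none of the fat absorption promoters, against 0.384% of all 32851 promoters in the table, 1.08% of those of genes higher beyond 2-fold and 0.212% of those of genes lower beyond 2-fold. The Cdx letters stood in 2 of 21 fat absorption promoters and in no enzyme promoter. Their share was 2.43% of all promoters, 1.53% of those of genes tested and 1.96% of those of genes higher beyond 2-fold. The Hnf4 letters were not alone in the enzyme promoters. The Tcf/Lef letters CTTTGAT also stood in 2 of the 20 and in no fat absorption promoter, against 2.31% of those of genes tested. A match is a description of the letters and not a binding site. The first 2 sequences, of Alpi (chr1:87101607-87101856, minus strand) and Treh (chr9:44672983-44673232, plus strand), carry the Hnf4 letters in capitals, as searched in Alpi and on the other strand in Treh, and Bco1 (chr8:117095615-117095864, plus strand), the beta-carotene cleaving enzyme, carries the Cdx letters in capitals on the other strand. Only promoters whose RefSeq start lay within 30 bases of the GENCODE gene start are printed, since starts differ between annotations, and the shares above use every RefSeq start. Each is read 5′ to 3′ toward the start.
Alpi: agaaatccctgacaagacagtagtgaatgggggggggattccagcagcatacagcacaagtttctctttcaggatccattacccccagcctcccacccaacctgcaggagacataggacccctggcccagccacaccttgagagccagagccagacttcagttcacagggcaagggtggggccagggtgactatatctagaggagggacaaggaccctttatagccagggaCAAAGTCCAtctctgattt
Treh: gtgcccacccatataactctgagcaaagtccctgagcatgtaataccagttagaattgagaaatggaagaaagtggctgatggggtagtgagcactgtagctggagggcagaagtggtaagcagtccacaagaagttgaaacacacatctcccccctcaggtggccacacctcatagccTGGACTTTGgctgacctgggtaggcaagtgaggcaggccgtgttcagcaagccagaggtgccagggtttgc
Bco1: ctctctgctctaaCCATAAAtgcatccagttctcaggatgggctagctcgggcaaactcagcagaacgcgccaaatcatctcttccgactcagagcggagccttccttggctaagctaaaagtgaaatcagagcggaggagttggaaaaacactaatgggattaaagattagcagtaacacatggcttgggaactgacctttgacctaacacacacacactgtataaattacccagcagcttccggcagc
Alpi and Treh are the enzymes described above, and Bco1 rose from 0.5 ± 0.263 to 7.16 ± 0.73 CPM (3.81 ± 0.23).

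Transporters of sugars, peptides and amino acids mostly rose. Of 19 genes tested, 16 rose and 3 fell (median 2.94). Slc5a1 (SGLT1), the sodium-glucose carrier of the brush border, stood at 0.245, 0.311 and 0.184 CPM on day 2 and 84.6, 73.5 and 69.3 CPM on day 7. Slc2a2 (GLUT2) went from 0.237 ± 0.0665 to 58.9 ± 0.393 CPM (7.95 ± 0.17), Slc3a1, a subunit of the cystine carrier, from 0.467 ± 0.227 to 122 ± 1.4 CPM, and its partner Slc7a9 from 4.91 ± 0.299 to 133 ± 8.72 CPM (4.76 ± 0.11). The 3 genes that fell are amino acid carriers common in dividing cells. Slc7a5 (LAT1), which imports leucine, fell, with 222, 249 and 213 CPM on day 2 and 74.9, 64.1 and 61.1 CPM on day 7, -1.77 ± 0.10, without overlap. Slc1a5, a glutamine carrier, changed by -0.65 ± 0.07 and Slc38a2 by -0.32 ± 0.08. Slc2a1 (GLUT1), the ubiquitous glucose carrier and the most abundant of the list, changed by 0.37 ± 0.11, which turned to -0.06 with library size alone.

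Of 30 genes of ion, bile acid and vitamin transport, 28 rose, 1 fell and 1 was not called (median 2.82). Guca2b (uroguanylin), a peptide hormone of the gut lumen, stood at 0.184, 0.242 and 0.307 CPM on day 2 and 93.7, 87.5 and 85.6 CPM on day 7. Slc26a6, an anion exchanger, rose from 6.37 ± 0.164 to 204 ± 24.2 CPM (5.003 ± 0.11), Slc51a, a subunit of the basolateral bile acid exporter, from 0.484 ± 0.129 to 27.01 ± 0.988 CPM, and Cybrd1, the brush border iron reductase, from 0.458 ± 0.0805 to 36.9 ± 5.12 CPM (6.32 ± 0.16). Slc39a4, the zinc importer, was abundant at both times and rose from 170.4 ± 6.94 to 416 ± 67.8 CPM. Trpm6, a magnesium channel, fell from 15.9 ± 1.89 to 10.6 ± 0.0884 CPM (-0.59 ± 0.10).

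The scaffold of the microvillus rose with a smaller median than the enzymes it carries. Of 22 structural genes, 19 rose, 17 of them beyond 2-fold, with a median of 1.46 against 5.76 for the enzymes. Myo1a, the myosin that ties actin to the membrane, stood at 64.2, 71.4 and 61.7 CPM on day 2 and 1288, 1148 and 1016 CPM on day 7, after 10.97, 9.96 and 9.87 CPM in the controls. Cdhr5, a cadherin that links microvillus tips, rose from 99.1 ± 3.16 to 983 ± 145 CPM (3.31 ± 0.12), Ush1c, which holds those links, from 20.5 ± 0.838 to 297 ± 34.1 CPM (3.86 ± 0.10), and Espn, an actin bundler, from 2.46 ± 0.347 to 63.2 ± 10.5 CPM (4.68 ± 0.15). Ezr (ezrin), the linker of membrane and actin and the most abundant of the list, went from 1265 ± 123 to 2522 ± 358 CPM (0.995 ± 0.12). The only member that fell was Usp48, a deubiquitinase, by 1.42-fold. Among 32 genes of junctions and polarity 22 rose and 4 fell (median 0.62), and with library size alone 16 rose and 11 fell. Cldn15, the pore-forming claudin of the small intestine, rose from 16.2 ± 1.4 to 251 ± 27.2 CPM (3.95 ± 0.13), and Gjb1, connexin 32, from 9 ± 0.424 to 121 ± 10.5 CPM.

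Marker lists of colon and of villus zones both rose. Of 20 colonocyte genes, 19 rose (median 2.98). Krt20, the keratin of mature surface cells, stood at 22.5, 23.1 and 23.4 CPM on day 2 and 1135, 1104 and 1086 CPM on day 7, and had risen from 2.95 ± 1.09 CPM in the controls. Clca4b rose from 1.51 ± 0.107 to 141 ± 2.99 CPM and Mxd1, a Myc antagonist, from 30.7 ± 0.947 to 327 ± 11.6 CPM. Ly6g was the 1 that fell, from 9.05 ± 0.644 to 1.68 ± 0.244 CPM. Of the villus lists, 10 of 12 genes of the bottom zone rose (median 4.80), 14 of 14 of the middle zone (median 7.37) and 17 of 18 of the tip (median 2.58). The zones' lists share genes with the fat and sugar lists above. In the bottom zone Gpx2, a glutathione peroxidase of crypts, fell from 327 ± 4.34 to 73.4 ± 8.75 CPM (-2.16 ± 0.09), and its change before day 2 was -1.01 ± 0.09. Among 11 markers of stomach and squamous epithelium 7 rose and 4 fell, with Tff1, a gastric trefoil peptide, at 1.12 ± 0.21 to 56.3 ± 4.36 CPM and Muc5ac, a gastric mucin, at 3.59 ± 0.666 to 27.2 ± 1.25 CPM, while Aqp5, a water channel, fell from 120.4 ± 9.17 to 27.02 ± 3.21 CPM.

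Of 38 transcription factors and regulators of the intestinal epithelium, 29 rose and 4 fell (27 and 9 with library size alone), with a median of 1.49. Hnf4a and Hnf4g, paired nuclear receptors of the enterocyte, both rose. Hnf4a stood at 477, 544 and 448 CPM on day 2 and 1598, 1409 and 1342 CPM on day 7 (1.57 ± 0.10), and Hnf4g at 5.94, 8.17 and 7.18 CPM on day 2 and 88.3, 83.3 and 122 CPM on day 7 (3.79 ± 0.15). Per transcript length, Hnf4a stood at 338 ± 43.2 TPM and Hnf4g at 8.99 ± 1.62 TPM at 2 days, and at 678 ± 30.5 and 84.9 ± 22.9 TPM at 7 days, so Hnf4a remained the more abundant. Nr1i2 (PXR), the xenobiotic receptor, rose from 2.06 ± 0.242 to 34.1 ± 3.55 CPM (4.05 ± 0.13), and Rxra, its dimer partner, from 7.9 ± 0.305 to 61.5 ± 7.17 CPM (2.96 ± 0.11). Ihh, the hedgehog signal of mature epithelium, rose from 1.67 ± 0.396 to 29.3 ± 2.08 CPM. Cdx2, the factor of intestinal identity, stood at 178 ± 5.56 CPM and 165 ± 9.98 CPM and was not called (adjusted p = 0.17), though with library size alone it was called lower (-0.53).

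**Figure D3:**
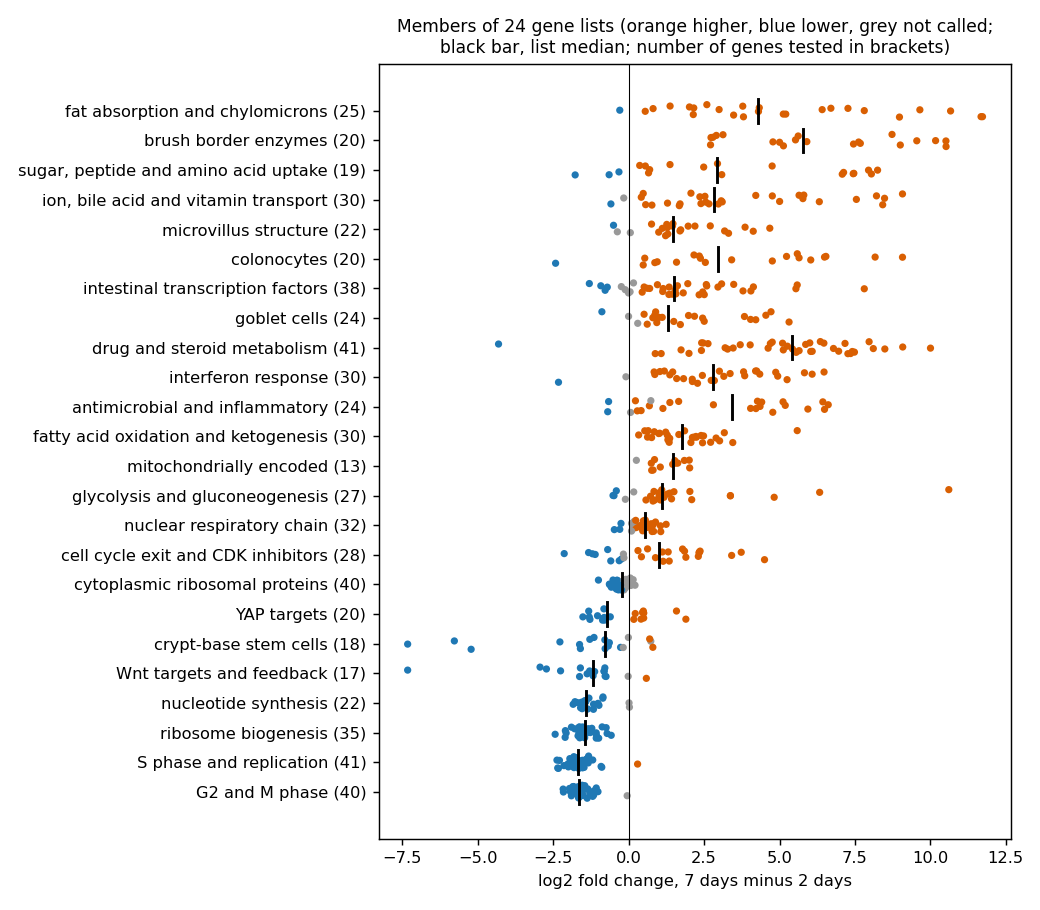
Log2 fold change, 7 days minus 2 days (x axis), of each tested gene in 24 of the 47 gene lists (rows), coloured by call, with the list median as a black bar. The digestive and drug metabolism lists spread to the right, while S phase, G2 and M phase and ribosome biogenesis cluster to the left of 0 with medians of -1.67, -1.65 and -1.46.

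Most goblet cell genes had risen by day 2 and went on rising. Of 24 tested, 21 rose after day 2 (median 1.30), and 20 had been higher at 2 days than in the controls (median 1.54, background 13.1%). Of the 20 brush border enzymes 5 had been, and the lists were not tested against each other. Tff3, the trefoil peptide of goblet cells, stood at 65.5, 54.5 and 70.8 CPM on day 2 and 839, 1030.0 and 861 CPM on day 7, after 10.1, 10.5 and 12.2 CPM in the controls. Fcgbp, a mucus protein, rose from 84.01 ± 9.59 to 2211 ± 224 CPM (4.72 ± 0.12), Zg16, a lectin of their granules, from 15.4 ± 1.73 to 359.9 ± 22.9 CPM (4.55 ± 0.11), and Muc13, a membrane mucin, from 40.5 ± 6.31 to 1615 ± 137 CPM (5.32 ± 0.13). Atoh1 and Spdef, the factors that set secretory and goblet fate, rose as well, from 1.88 ± 0.0793 to 3.78 ± 0.112 CPM (1.005 ± 0.14) and from 9.25 ± 0.837 to 14.2 ± 0.725 CPM (0.61 ± 0.11), the call for Spdef being lost with library size alone (0.20). Galnt12, which starts mucin glycans, fell by 1.85-fold.

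Few markers of the other secretory cells passed the filter. Of 18 Paneth genes 7 were tested, of which 2 rose and 3 fell. Lyz1, the lysozyme of these cells, stood at 0.541 ± 0.216 CPM and 0.394 ± 0.0747 CPM and was not called. Pla2g2a, their phospholipase, had 48 counts at 2 days and 0 at 7 days, so it was at least 13.1-fold lower against a floor of 3 counts over the group. Of 23 enteroendocrine genes 6 were tested (2 rose, 2 fell, or 1 and 3 with library size alone), and of 18 tuft cell genes 5 (2 rose, 1 fell, or 1 and 2 with library size alone). Chga, the granin of enteroendocrine cells, and Dclk1, the tuft cell kinase, were below the filter, with 0.0947 ± 0.0702 and 0.0266 ± 0.0233 CPM at 7 days. Reg4 fell from 4.22 ± 0.81 to 0.364 ± 0.154 CPM (-3.53 ± 0.25), and Cpe, a prohormone-processing enzyme, rose from 3.92 ± 0.671 to 29.1 ± 0.802 CPM.

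Genes of cell division fell between 2 and 7 days. Of 40 genes of G2 and M phase, 39 fell (background 39.9%), each beyond 2-fold (background 16.2%), with a median of -1.65. Between control and 2 days 2 of the 40 were called, both lower (background 10.6%), with a median of -0.06, and the contrast of the 2 steps was called for 39 of 40 (background 58.3%). Mki67, the proliferation marker, stood at 323, 319 and 328 CPM under doxycycline, 336, 370.5 and 215 CPM on day 2 and 140.1, 131 and 157 CPM on day 7. The 2-day samples lay on both sides of the controls, sample 3 being the lowest, and the 7-day samples lay below all of them. Ccnb1, cyclin B1, fell, with 289, 281 and 279 CPM on day 2 and 61.97, 64.6 and 62.9 CPM on day 7, 4.48-fold, and Ccna2, cyclin A2, from 273 ± 8.66 to 77.03 ± 4.59 CPM (-1.82 ± 0.08). Foxm1, the factor that drives these genes, fell from 98.9 ± 7.82 to 27.7 ± 0.927 CPM (-1.84 ± 0.08), and Top2a, which untangles chromosomes, from 466 ± 43.7 to 170.2 ± 11.1 CPM. The member that was not called was Pttg1 (securin), at 12.1 ± 1.69 CPM and 11.7 ± 1.6 CPM, though with library size alone it was called lower (-0.47).

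Of 41 genes of S phase and replication, 40 fell (median -1.67), after 21 had already been lower at 2 days than in the controls (background 10.6%, median -0.28). The contrast of the steps was called for all 41. Mcm5, a subunit of the replicative helicase, stood at 387, 369 and 324 CPM on day 2 and 103, 96.1 and 84.7 CPM on day 7, after 580.4, 543 and 449 CPM in the controls. Mcm4, another subunit, changed by -1.93 ± 0.07, and Cdc45, which activates it, by -2.01 ± 0.08, both as log2 changes. Cdc6, which loads the helicase, fell from 85.3 ± 3.71 to 21.3 ± 1.82 CPM. Uhrf1, which maintains DNA methylation, fell from 219.7 ± 19.1 to 43.1 ± 3.84 CPM (-2.35 ± 0.10), and Dnmt1, the maintenance methyltransferase, from 383 ± 53.5 to 137 ± 10.6 CPM (-1.48 ± 0.11). The exception was E2f2, which rose from 62.1 ± 4.83 to 76.2 ± 5.13 CPM (0.30 ± 0.08), turning to -0.13 with library size alone.

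The promoters of cell cycle genes hold letters that are known as elements of cell cycle control: the CHR element TTTGAA in genes of G2 and M phase, CCAAT in both groups, and the E2F letters TTTCCCGC in genes of S phase. In the 250 bases before each start, on both strands, TTTGAA stood in 12 of 35 promoters of G2 and M phase genes (34.3%), against 14.3% of those of S phase genes, 11.1% of those of all genes tested and 15.99% of all promoters. CCAAT stood in 71.4% of the G2 and M phase promoters and 61.9% of the S phase promoters, against 35.8% of those of genes tested. In lists that rose, it stood in 55% of brush border enzyme promoters and 42.9% of fat absorption promoters. The E2F letters stood in 3 of 42 S phase promoters (7.14%) and in none of G2 and M phase, against 1.62% of genes tested and 2.91% of genes lower beyond 2-fold. Among all genes lower beyond 2-fold, TTTGAA stood in 13.9% of promoters. These shares are descriptions with no test, and promoters of 1 gene can overlap. The printed sequences show TTTGAA in capitals for Prc1 (chr7:80294226-80294475, plus strand), which bundles the midzone of the spindle, for Cdk1 (chr10:69352913-69353162, minus strand), the mitotic kinase, and for Cdc20 (chr4:118437344-118437593, minus strand), an activator of the anaphase-promoting complex. The E2F letters are in capitals, on the other strand, for E2f7 (chr10:110745189-110745438, plus strand), a repressor of the E2F family. Of the promoters with these letters, 10 of 12 with TTTGAA and 1 of 3 with the E2F letters start within 30 bases of the GENCODE gene start.
Prc1: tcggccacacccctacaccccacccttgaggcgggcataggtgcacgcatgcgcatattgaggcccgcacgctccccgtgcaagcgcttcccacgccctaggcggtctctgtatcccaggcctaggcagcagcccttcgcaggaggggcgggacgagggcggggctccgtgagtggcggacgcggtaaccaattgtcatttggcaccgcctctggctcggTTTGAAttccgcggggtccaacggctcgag
Cdk1: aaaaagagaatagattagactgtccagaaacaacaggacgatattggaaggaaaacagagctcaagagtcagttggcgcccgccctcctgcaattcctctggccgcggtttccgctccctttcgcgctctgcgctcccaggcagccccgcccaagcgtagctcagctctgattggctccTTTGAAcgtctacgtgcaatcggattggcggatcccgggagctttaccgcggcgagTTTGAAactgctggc
Cdc20: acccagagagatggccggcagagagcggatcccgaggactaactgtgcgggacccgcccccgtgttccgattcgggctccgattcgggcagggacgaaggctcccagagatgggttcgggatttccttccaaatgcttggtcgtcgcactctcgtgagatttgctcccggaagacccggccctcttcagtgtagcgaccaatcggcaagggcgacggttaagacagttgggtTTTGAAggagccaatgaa
E2f7: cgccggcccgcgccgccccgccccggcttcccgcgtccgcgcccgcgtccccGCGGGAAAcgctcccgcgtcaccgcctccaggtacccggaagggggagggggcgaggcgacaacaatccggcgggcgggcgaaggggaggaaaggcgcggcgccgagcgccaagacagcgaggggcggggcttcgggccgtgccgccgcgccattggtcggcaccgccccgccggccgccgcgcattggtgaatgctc
Cdk1 fell from 208 ± 14.6 to 67.4 ± 4.72 CPM (-1.63 ± 0.08), Prc1 from 132 ± 0.564 to 40.7 ± 2.12 CPM (-1.70 ± 0.08), and Cdc20 and E2f7 changed by -1.54 ± 0.08 and -2.30 ± 0.12.

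Genes of cell cycle exit were mixed. Of 28 tested, 18 rose (background 39.2%) and 8 fell (background 39.9%), with a median of 1.003. Cdkn1a, which encodes the inhibitor p21, stood at 15.9, 16.9 and 14.9 CPM on day 2 and 241, 216 and 176 CPM on day 7, 3.73 ± 0.13, with no overlap. Trp53, which encodes its known activator, fell at a low level, as given above, and its part in this rise was not tested. Cdkn2b (p15) rose from 31.1 ± 1.85 to 157 ± 5.35 CPM (2.34 ± 0.08) and Tob1, an antiproliferative factor, from 29.1 ± 1.54 to 150.1 ± 9.01 CPM (2.37 ± 0.08). Ndrg1, a differentiation and stress gene, stood at 189, 197 and 160.0 CPM on day 2 and 4689, 4259 and 3438 CPM on day 7. Among 24 p53 targets 11 rose and 7 fell (median 0.04), against 39.2% and 39.9% of all genes tested. With library size alone 10 of these targets rose and 13 fell. Among them, Trp53inp1 rose from 1.4 ± 0.0623 to 17.4 ± 2.43 CPM, and the nuclease Aen fell from 49.3 ± 2.55 to 16.2 ± 1.03 CPM.

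The machinery that makes ribosomes fell as a whole. All 35 ribosome biogenesis genes tested were lower at 7 days, 30 of them beyond 2-fold, with a median of -1.46. Of these, 25 had been lower at 2 days than in the controls (background 10.6%), with a median of -0.32. Ncl (nucleolin), an abundant nucleolar protein, stood at 1360.3, 1230.4 and 1202 CPM on day 2 and 438, 449.6 and 488 CPM on day 7, after 1525, 1617 and 1624 CPM in the controls. Nop56, a core protein of the particles that methylate ribosomal RNA, fell from 314 ± 15.7 to 100.2 ± 4.58 CPM (-1.65 ± 0.08), and Nop16 from 77.3 ± 8.03 to 14.3 ± 0.73 CPM (-2.44 ± 0.09). The ribosomal proteins themselves changed little. Of 40, 20 were lower and 20 were not called, with a median of -0.21, while with library size alone all 40 were called lower. Rps23 had the largest fall, from 521 ± 76.2 to 260.0 ± 21.8 CPM (-1.003 ± 0.11). Genes of nucleotide synthesis were mostly lower as well, with 20 of 22 genes lower (median -1.42). Ctps, which makes CTP, fell from 157 ± 5.37 to 43.9 ± 2 CPM (-1.84 ± 0.07), Impdh2, which commits purines to GTP, from 698 ± 26.5 to 238 ± 17.1 CPM, and Tyms, which makes thymidylate, from 79.1 ± 4.27 to 28.3 ± 1.36 CPM.

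**Figure D4:**
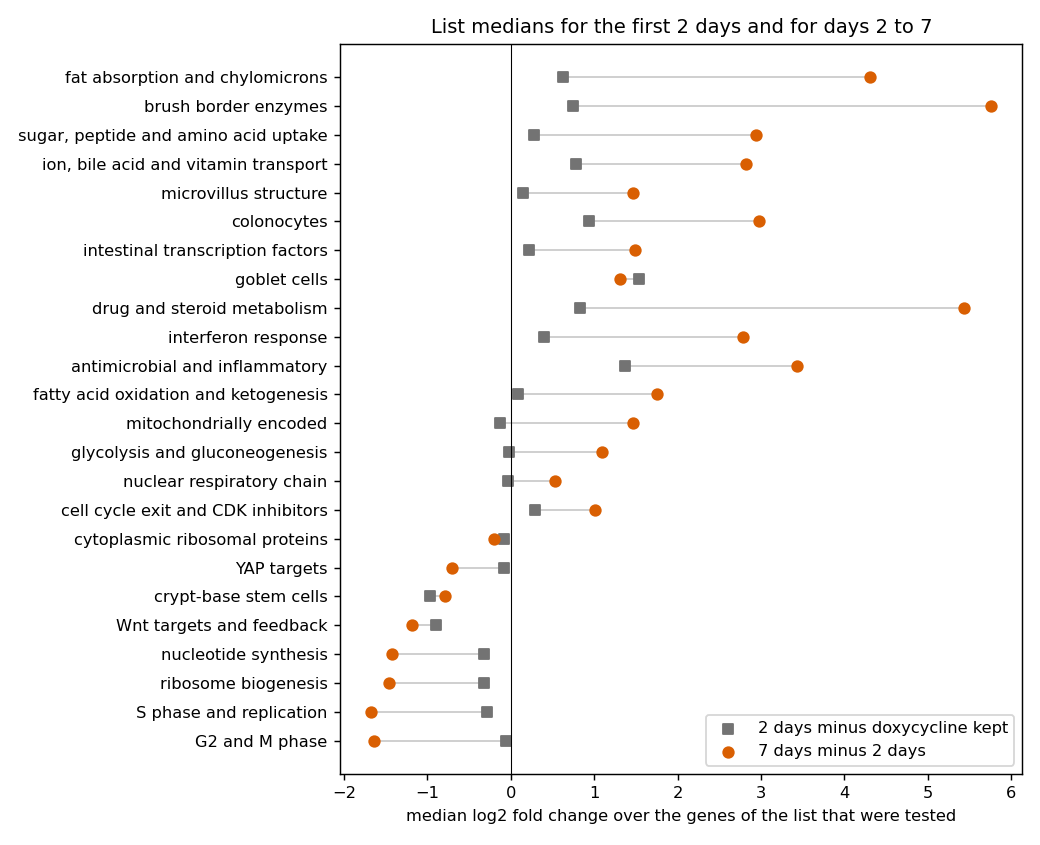
Median log2 fold change of 24 gene lists (x axis) for 2 days minus doxycycline kept (grey squares) and for 7 days minus 2 days (orange circles); the steps share the 2-day samples. The G2 and M phase median lies at -0.06 for the first step and -1.65 for the second, while the goblet cell medians lie close together at 1.54 and 1.30.

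Genes of fat oxidation rose, and so did most of those that handle sugar. All 30 genes of fatty acid oxidation and ketogenesis rose (median 1.76), after a median of 0.09 in the first step. Ehhadh, a peroxisomal enzyme, rose from 11.6 ± 0.548 to 127 ± 2.66 CPM (3.45 ± 0.10), Slc25a20, which carries acylcarnitines into mitochondria, from 19.99 ± 1.4 to 131 ± 10.03 CPM (2.72 ± 0.09), and Ucp2, a mitochondrial carrier, stood at 379.9, 415 and 354 CPM on day 2 and 4165, 3307 and 2865 CPM on day 7. Of 27 genes of glycolysis and gluconeogenesis, 22 rose and 3 fell (median 1.10). Among those that rose were genes of fructose and glucose handling. Khk, ketohexokinase, rose from 7.37 ± 0.722 to 209 ± 13.3 CPM (4.82 ± 0.11). G6pc, glucose-6-phosphatase, had 0 counts at 2 days and 8.01, 6.38 and 5.98 CPM at 7 days, at least 211-fold higher. Pkm, a pyruvate kinase and the most abundant of the list, rose from 6094 ± 519 to 10644 ± 1887 CPM (0.80 ± 0.14). Hk2, the hexokinase of proliferating cells, fell from 74.1 ± 5.67 to 55.7 ± 3.02 CPM (-0.41 ± 0.08), and Slc16a1, a lactate carrier, from 211 ± 8.76 to 147 ± 8.92 CPM. The third gene that fell was Fbp2, from 184 ± 8.79 to 131 ± 9.77 CPM (-0.49 ± 0.08).

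Of 13 mitochondrially encoded genes, 12 rose, with a median of 1.46, and their sum went from 8605 to 11540.3 CPM to 20329 to 27028 CPM. mt-Co1, a subunit of complex IV, stood at 1974, 2142 and 2809 CPM on day 2 and 5973, 7257 and 8164 CPM on day 7. Of 32 nuclear genes of the respiratory chain, 24 rose and 3 fell (median 0.53), and with library size alone 11 rose and 9 fell. Sdhc and Sdhb, subunits of complex II, rose by 1.24 ± 0.09 and 1.05 ± 0.09. Of 24 sterol synthesis genes 20 rose and 3 fell (10 and 4 with library size alone). Insig1, the sterol-sensing brake of the pathway, rose from 169.6 ± 18.1 to 648 ± 91.2 CPM (1.93 ± 0.12).

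Drug and steroid metabolism rose nearly throughout. Of 41 genes tested, 40 rose, 39 of them beyond 2-fold, with a median of 5.43, and 27 had been higher at 2 days than in the controls (background 13.1%). Adh1, alcohol dehydrogenase, stood at 0.429, 0.692 and 0.368 CPM on day 2 and 550.2, 494 and 477 CPM on day 7 and rose 1027-fold. Cyp4f14, a fatty acid hydroxylase, rose from 6.47 ± 0.491 to 807 ± 46.5 CPM (6.96 ± 0.10), and Cyp2d26 from 0.465 ± 0.0756 to 169.8 ± 18.9 CPM (8.49 ± 0.15). Gsta1, a glutathione transferase, was among the 10 most abundant genes at 7 days, at 7916, 8724 and 7857 CPM after 849, 787 and 1035 CPM at 2 days. Several of these families (Cyp2c, Cyp2d, Gsta, Ugt2b, Ces2) hold near-identical copies whose reads can be split between genes, so single members are uncertain. Cyp1b1, which the aryl hydrocarbon receptor is known to induce, was the 1 that fell, with 32 counts at 2 days and 1 at 7 days, 26.2-fold (95% exact counting interval 4.37 to 1066) lower.

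Interferon response genes were higher at 7 days. Of 30 tested, 28 rose (background 39.2%), 26 beyond 2-fold, with a median of 2.79 after 0.40 in the first step, where 5 were higher (background 13.1%) and 2 lower. Irf7, a master factor of the response, stood at 4.62, 3.95 and 3.84 CPM on day 2 and 178, 107 and 80.4 CPM on day 7, 4.87 ± 0.25. All 3 samples at 7 days lay above all 3 at 2 days, with sample 1 the highest. The list's sum ran from 719 to 1221 CPM, against 179.6 to 188 CPM at 2 days. Oasl1, an antiviral effector, rose from 15.6 ± 0.121 to 225 ± 51.6 CPM (3.85 ± 0.14), Ifit1, which binds foreign RNA, from 0.326 ± 0.0953 to 22.6 ± 7.14 CPM (6.08 ± 0.29), and Ifih1 (MDA5), a sensor of double-stranded RNA, from 9.14 ± 0.383 to 39.4 ± 4.56 CPM (2.11 ± 0.11). Ifitm3, a membrane restriction factor that is also a Wnt target, fell, with 37.5, 32.8 and 31.98 CPM on day 2 and 9.52, 5.63 and 5.43 CPM on day 7. Markers of immune cells were near 0 throughout: of 17, 3 were tested, all higher at 7 days, and the list summed to 1.97 to 2.49 CPM at 2 days and 4.8 to 6.97 CPM at 7 days, with 4 of the 17 at 0 counts in all 6 samples. Csf1r, the receptor of macrophage growth factor, stood at 1.13, 0.826 and 0.916 CPM at 7 days. The part of these markers in the result was not tested.

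Of 24 antimicrobial and inflammatory genes, 20 rose and 2 fell (median 3.43), and 17 had been higher at 2 days than in the controls (background 13.1%). Dmbt1, a secreted receptor that binds bacteria, stood at 3.24, 5.31 and 5.08 CPM under doxycycline, 60.8, 78.3 and 60.8 CPM on day 2 and 4185, 4128 and 3954 CPM on day 7. Lypd8, which keeps flagellated bacteria off the epithelium, rose from 20.1 ± 1.08 to 1807 ± 385 CPM (6.49 ± 0.17), Pigr, which carries IgA across it, from 8.55 ± 1.39 to 312 ± 11.2 CPM (5.19 ± 0.11), and Nlrp6, an inflammasome sensor, from 20.6 ± 1.51 to 398 ± 16.9 CPM (4.27 ± 0.09). The 2 that fell were the inflammatory signals Cxcl1, from 5.92 ± 1.2 to 3.66 ± 0.249 CPM, and Tnf, from 9.44 ± 0.311 to 5.98 ± 1.04 CPM, and both had risen in the first 2 days, by 1.54 ± 0.16 and 1.25 ± 0.13.

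Signalling lists other than Wnt were divided. Of 20 YAP targets, 11 fell and 9 rose (median -0.70), and with library size alone 12 fell and 2 rose. Ankrd1, a classical target, rose in the first step (0.77 ± 0.09) and fell in the second, with 38.2, 34.7 and 36.3 CPM on day 2 and 14.4, 12.1 and 11.7 CPM on day 7, whereas Ccn2 (CTGF) rose from 21.2 ± 1.13 to 63.5 ± 3.13 CPM (1.58 ± 0.09). Of 23 genes of fetal-like and regenerating epithelium, 11 rose and 7 fell (8 and 12 with library size alone). Lgals1, a secreted lectin, fell from 204 ± 17.3 to 21.1 ± 4 CPM (-3.27 ± 0.13), while Krt19 rose from 4709 ± 469.7 to 12220.0 ± 2185 CPM (1.38 ± 0.16) and Anxa10 from 8.17 ± 0.211 to 59.1 ± 5.1 CPM. Of 23 ERK outputs (5 higher and 14 lower with library size alone), 11 fell, such as Dusp7, a phosphatase of ERK (-1.38 ± 0.11), and Spry1, a feedback inhibitor (-0.996 ± 0.07), and 7 rose, such as Dusp6 (0.72 ± 0.07). In the Notch pathway 7 of 16 rose and 6 fell (5 and 9 with library size alone), close to the shares of all genes (39.2% and 39.9%). Among its ligands, Jag2 fell from 53.6 ± 3.1 to 18.4 ± 0.704 CPM (-1.55 ± 0.08) and Dll4 and Dll1 rose, by 3.003 ± 0.27 and 1.09 ± 0.10. In the BMP pathway 10 of 18 rose and 5 fell (5 and 8 with library size alone). The ligand Bmp2 rose from 7.13 ± 0.291 to 47.4 ± 0.684 CPM (2.73 ± 0.09), and Bambi, a decoy receptor and Wnt target, fell from 4.51 ± 0.19 to 1.22 ± 0.0948 CPM (-1.88 ± 0.15).

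Among the most abundant transcripts at 7 days were those of the Sprr2a copies. They are listed with the cornified envelope, the crosslinked shell of surface cells in skin-like epithelia. The list of 27 genes held the cornified envelope and keratins, both of stratified and of simple epithelium, such as Krt8 and Krt19. Of these genes, 17 rose and 5 fell (12 and 7 with library size alone). The whole list, simple keratins included, summed to 23213 to 25813 CPM at 2 days and 101415 to 132578 CPM at 7 days. Sprr2a2, a small proline-rich crosslinking protein, stood at 3174, 3123 and 3184 CPM on day 2 and 38280.0, 33719 and 29976 CPM on day 7, and Sprr2a1 at 35081, 30993 and 27503 CPM at 7 days. These copies, with Sprr2a3, are near-identical, so their separate counts are uncertain. Krt6a, a keratin of stratified and wounded epithelium, fell, with 9.34, 9.14 and 6.38 CPM on day 2 and 0.476, 0.263 and 0.403 CPM on day 7, -4.44 ± 0.25. Krt8, a keratin of simple epithelium, rose from 5358 ± 391 to 11860.0 ± 1764 CPM (1.15 ± 0.13).

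Of 28 ATF4 targets and amino acid synthesis genes, 11 rose and 12 fell (9 and 17 with library size alone), close to the shares of all genes (39.2% and 39.9%). Psat1, of serine synthesis, fell from 480.3 ± 17.2 to 130.2 ± 11.7 CPM (-1.88 ± 0.09), while the stress genes Ddit3 (CHOP) and Ddit4 rose from 2.92 ± 0.281 to 19.02 ± 1.44 CPM and from 18.8 ± 0.826 to 120.3 ± 6.59 CPM (2.68 ± 0.09). Of 22 genes of the unfolded protein response 10 rose, with Dnajb9 at 2.05 ± 0.11, and 9 fell (8 and 11 with library size alone). Of 32 apoptosis regulators 20 rose and 5 fell (12 and 12 with library size alone), with Casp1, the inflammasome caspase, up from 32.96 ± 1.58 to 129 ± 3.96 CPM (1.97 ± 0.09).

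Of the 12 largest rises by the fixed rule, 2 lay outside the lists. They were Gdpd2, a phosphodiesterase, with 0 counts at 2 days and 10.2, 10.3 and 8.69 CPM at 7 days (at least 305-fold higher), and Rdh7, a retinol dehydrogenase, from 0.0857 ± 0.022 to 73.04 ± 2.7 CPM. Of the 12 largest falls, 8 lay outside the lists. Hunk, a kinase, fell, with 21.4, 21.5 and 17.7 CPM on day 2 and 0.606, 0.676 and 0.33 CPM on day 7, and Cdo1, cysteine dioxygenase, from 7.24 ± 0.125 to 0.378 ± 0.0793 CPM (-4.25 ± 0.17). Chst11, which sulphates chondroitin, changed by -3.31 ± 0.16. The others were Cep78 (-3.51), Faim2 (-3.31), Bex4 (-2.98), Gkap1 (-2.95) and Aunip (-2.85), as log2 changes. Markers of fibroblasts summed to 43.7 to 56.4 CPM at 2 days and 29.2 to 40.6 CPM at 7 days over 15 genes, most of it Acta2 (37.8 ± 4.94 and 29.6 ± 5.73 CPM), and 2 of the 15 were at 0 counts in all 6 samples. Vim (vimentin), a gene of mesenchymal cells, fell from 5.46 ± 0.982 to 0.988 ± 0.179 CPM (-2.46 ± 0.19). Endothelial markers summed to at most 3.37 CPM and erythroid markers to at most 4.11 CPM in these 6 samples.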

How the data were processed

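RNA was measured in 9 samples, grouped by their titles into doxycycline kept, removed for 2 days and removed for 7 days, 3 in each. Per the labels' protocols, poly(A) RNA went into NEBNext Ultra II libraries, a kit without strand marking, so overlapping and antisense genes cannot be told apart. The authors deposited the counts unnormalised, as integer reads per gene in 1 table. Per the submitters' processing notes, the tools were STAR 2.7.0e, featureCounts and DESeq2, with builds mm10 and GRCm38, and the annotation release and strand setting are not stated in the sources consulted. Symbols, coordinates and lengths were taken from GENCODE M21 (GRCm38), which held 21236 of the 21253 gene IDs, and promoter sequences from the RefSeq table (GRCm38.p6).

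Counts were filtered with filterByExpr (12535 genes kept), scaled with TMM factors and fitted with edgeR 4.0.16 (R 4.3.3), using the quasi-likelihood model over all 9 samples and the group alone, so that the comparisons share 1 estimate of the spread. Calls needed a two-sided p, adjusted by Benjamini-Hochberg over all genes tested, under 0.05. The SE is the absolute log2 fold change over the square root of F. TPM values divide counts by exonic length. A group at 0 counts was set at a floor of 3 counts over the group, and intervals and floors cover counting error only. No replicate pair agreed within sampling noise (chi-square per degree of freedom 4.24 to 38.3 over genes).

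The members and the gene lists were chosen with earlier results of these data known. There were 47 lists, described by counts and medians with no test of their own, and 4 listed symbols were not matched. Named genes were 15 fixed markers, the 12 largest changes in each direction among called genes with at least 5 CPM in the higher group and no overlap, the 10 most abundant genes at each time, and per list the 4 with the smallest p, the most abundant, and the exceptions where there were 3 or fewer. Some of these are not reported here. Atoh1, Spdef, Hnf4g, Cdx2, Mcm5 and the genes whose promoters are printed outside that rule (Bco1, Cdk1, Cdc20, E2f7, Prc1) were added after their values had been seen, as were the genes under the closing observations. The testing code was run on simulated data. Alternatives were DESeq2 1.42.0 (size factors, Wald test), library size alone, upper-quartile factors, limma-voom (limma 3.58.1), no filter or a mean of 5 CPM, only the 6 samples, the replicate number as a block, and each sample left out in turn.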

Additional observations from a re-analysis of the deposited data

How the results depend on the processing

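The counts of genes called kept within 1.5 times of their value under each of 18 alternatives, except that genes lower beyond 2-fold went from 2033 to 3546 with library size alone. With each sample left out in turn, genes called ran from 9460 to 10063, against 9918 with all samples. Of 176 named genes that were rerun, 166 kept their direction and call throughout. E2f2 and Slc2a1 turned to -0.125 and -0.059 with library size alone, and Pttg1, which was not called, moved between -0.138 and 0.067 with 1 sample left out. With library size alone Pttg1 and Lyz1 were called lower (-0.47 and -0.88, adjusted p = 0.0029 and 0.028). Acta2 was not called without 2-day sample 1 (adjusted p = 0.14) or 7-day sample 3 (adjusted p = 0.12). Of the list medians, that of the enteroendocrine genes turned to 0.46 with only the 6 samples, and with library size alone that of the unfolded protein response turned to -0.24, p53 targets from 0.04 to -0.38, Notch from 0.04 to -0.37, fetal-like epithelium from 0.12 to -0.30, tuft cells from 0.09 to -0.30 and erythroid cells from 0.29 to -0.12. Genes under the filter and single members of near-identical families are limited by depth and by read assignment.

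Correlations of deviations between same-numbered samples were 0.07, -0.13 and 0.10 for 2 and 7 days, 0.14, 0.02 and 0.19 for control and 2 days, and 0.33, -0.01 and 0.48 for control and 7 days. Between differently numbered samples they ran from -0.16 to 0.10 for 2 and 7 days and from -0.17 to 0.06 for control and 2 days. For control and 7 days they ran from -0.44 to 0.17. In no pair of groups were all 3 same-numbered values over 0.1. Nothing in the labels pairs the numbers, so they were not taken to pair the samples. With the replicate block, 5087 genes were higher and 5221 lower, and the pairing of numbers changed no count by over 1.5 times.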

Other observations

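Of the 1333 genes that fell in the first 2 days, 932 fell further by day 7 and 224 (16.8%) rose, among them genes of mature epithelium. Over all genes tested, 39.9% fell and 39.2% rose between 2 and 7 days. Because both steps use the 2-day samples, a low level there enters both, and the 4 genes below were picked after their values had been seen, so they are given with no test of the turn. Mgam, maltase-glucoamylase, stood at 12.1 ± 1.14 CPM in the controls, 8.77 ± 1.88 CPM at 2 days and 429.8 ± 52.8 CPM at 7 days. The first change was -0.47 ± 0.14 and the second 5.62 ± 0.15. Vdr, the vitamin D receptor, went from 2.24 ± 0.386 to 1.28 ± 0.353 and 14.2 ± 1.48 CPM, and Aldh1a1, a retinal dehydrogenase, from 201 ± 3.32 to 104 ± 5.31 and 646 ± 26.4 CPM. Slc40a1 (ferroportin), the iron exporter, went from 22.4 ± 0.778 to 12.3 ± 0.353 and 77.9 ± 5.68 CPM.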
